A study of Mus musculus with 48 samples.

Results

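The C/EBP (CCAAT/enhancer-binding protein) family is a set of basic leucine zipper (bZIP) transcription factors, here C/EBPα (gene CEBPA), C/EBPβ (CEBPB), C/EBPδ (CEBPD), C/EBPγ (CEBPG) and CHOP, the product of DDIT3. Members were all array probes that carry the symbol of one of these 5 genes. 4 of the 5 genes had a probe, which gave 5 of the 24613 probes and 4 of the 18991 gene symbols. CEBPG was not analysed here. CEBPA was read by probe 5690519, CEBPB by 2970019, DDIT3 by 780373, and CEBPD by 110458 and 3360176, of which the brighter probe 110458 stands for the gene unless the other is named.

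The cells were 3T3-L1, a mouse fibroblast line that turns into fat cells when treated with hormones, transfected before differentiation with 50 nM of a pool of siRNAs against PPARγ (PPARγ KD) or with a pool of non-targeting siRNAs (control siRNA). Treatment was the same in both groups. From confluence on day −2 they were kept for 48 h in dexamethasone (DEX, 0.25 μM) with isobutylmethylxanthine (IBMX, 0.5 mM), and for 48 h from day 0 in insulin (5 μg/ml) with rosiglitazone (1 μM), a PPARγ agonist. RNA was taken on day −2 and on days 0 to 6 in 3 independent biological replicates, so that there were 48 arrays, 24 for each siRNA. Day −2 values are from cells before the hormones and day 0 values from cells at the end of the IBMX and DEX step. The siRNA was a transient pool in a cell line, so every sample shares one genetic background.

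C/EBP proteins bind DNA as dimers through the bZIP domain and can pair with each other. In the textbook scheme of fat cell formation, C/EBPβ and C/EBPδ are induced within hours of the hormones, C/EBPβ by signals that raise cAMP and C/EBPδ by glucocorticoid, and both act upstream of PPARγ and C/EBPα. PPARγ and C/EBPα then keep each other's genes on and drive the genes of the mature fat cell. CHOP lacks the usual DNA contacts of the family, forms dimers with the other members and blocks their binding to classical sites, and its gene is a target of ATF4 in the response to amino acid shortage and to stress of the endoplasmic reticulum.

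Values below are log2 of background-corrected and scaled array signal, and differences are PPARγ KD minus control siRNA unless stated otherwise. A probe counted as above background on an array when its detection p was under 0.01. A difference was called when limma's p, Bonferroni-adjusted over all 24613 probes, was at most 0.05, and adjusted p below always has this meaning. Between 33.4% and 40.4% of probes were above background on an array, with replicate 3 at 33.4% to 35.4% and replicates 1 and 2 at 36.8% to 40.4%. PPARG, the target of the siRNA, had a mean log2 signal of 11.42 with control siRNA and 9.08 in the PPARγ KD (difference −2.34, SE 0.04, adjusted p = 9.48e-34, lower in 24 of 24 pairs of arrays of one day and replicate number). Probe 6130632, above background on all 48 arrays, stands for PPARG here. Of its other probes, 1990168 passed background on 24 of 24 control and 5 of 24 PPARγ KD arrays and 2680603 on 8 of 24 and 0 of 24, so that they give no exact difference. All 8 fibroblast markers, VIM and COL1A1 among them, passed background on each of the 48 arrays, and their summed log2 signal lay between 15.79 and 16.68 with control siRNA and between 16.24 and 16.80 in the PPARγ KD. The 6 adipocyte markers each passed background on some control arrays, with summed signals between 8.06 and 16.67 in control cells and between 7.60 and 14.06 in the PPARγ KD, where FABP4 and PLIN passed it on 0 of 24 arrays. With control siRNA, FABP4 passed it on 12 and PLIN on 18 of 24 arrays. Of the macrophage markers PTPRC, EMR1, CD68, CSF1R and AIF1 and the endothelial markers PECAM1, CDH5, KDR and TEK, 0 were above background on any array.

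Across the family, the siRNA changed CEBPA and DDIT3 in opposite directions over days −2 to 6. CEBPA was lower in the PPARγ KD, by at least 1.64-fold, and DDIT3 was 1.26-fold higher, whereas the differences of CEBPB (log2 −0.11) and of CEBPD (0.05) were not called. Thus 2 of the 5 member probes were called, where 13.1% of all probes were called, 6.74% lower and 6.37% higher in the PPARγ KD. Over time in control cells CEBPB, CEBPD, CEBPA and DDIT3 all changed, each with a course of its own.

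CEBPB, the factor of the first wave, rose during the IBMX and DEX step with either siRNA. Its promoter is shown because the gene answers cAMP, to whose response element the searched letters TGACG belong. Sequences are the 250 bases before the start site from RefSeq (GRCm38.p6), 5′ to 3′ on the strand of the gene, and 3 of the 4 measured genes (Cebpb, Cebpa and Ddit3) had one. Each was searched on both strands for 5 motifs. These were TGACG, the core of cAMP response elements, and the C/EBP core TTGCG. The third was TGACTCA, which is the site of AP-1 factors. The others were the TATA box, TATAAA, and the DR1 element to which PPARγ binds with RXR, searched as AGGTCANAGGTCA. TGACG and TGACTCA share the letters TGAC but cannot match at the same start. Capitals below mark the matches named for each gene.
Cebpb, chr2:167688665-167688914, + strand: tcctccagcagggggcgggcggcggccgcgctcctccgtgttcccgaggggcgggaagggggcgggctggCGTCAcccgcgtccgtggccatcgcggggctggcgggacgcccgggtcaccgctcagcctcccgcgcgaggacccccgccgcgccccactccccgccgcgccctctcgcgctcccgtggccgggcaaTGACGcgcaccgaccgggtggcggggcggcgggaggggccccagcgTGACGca
TGACG was found 3 times, starting 180, 53 and 7 bases before the start site, the first on the opposite strand. Among all 32851 promoter windows of this length 17.8% held TGACG. The other motifs had 0 matches in the Cebpb window.

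With control siRNA, CEBPB signals before the hormones were 12.34, 12.13 and 12.23 in replicates 1, 2 and 3, and at day 0 they were 13.63, 13.41 and 13.60. All day 0 arrays were above all day −2 arrays, and the rise was 1.31 (SE 0.08, 2.49-fold, adjusted p = 5.48e-15). For this step 9.06% of all probes were called, 4.01% higher and 5.04% lower. On day 1 the signals were 12.80, 12.63 and 12.68, a fall by 0.84 from day 0 (SE 0.08, adjusted p = 5.23e-09, with 9.06% of all probes called).

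A second, smaller maximum of CEBPB in control cells lay on day 2, at 13.26, 13.05 and 12.98. The step from day 1 to day 2 was 0.40 (SE 0.08) and was not called (adjusted p = 0.174, with 3.41% of probes called). From day 2 to day 3 the signal fell by 0.93 (SE 0.08, adjusted p = 2.79e-10, with 8.45% of probes called), to 12.21, 12.15 and 12.13, the lowest mean of the course. On days 4, 5 and 6 it was 12.46 ± 0.06, 12.52 ± 0.04 and 12.77 ± 0.23 (SD, n = 3), and no step after day 3 was called for any member, where 0.934%, 0.163% and 0.0691% of all probes were called.

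CEBPB also peaked at day 0 in the PPARγ KD. Its signals of 12.25, 12.23 and 12.16 before the hormones became 13.80, 13.82 and 13.82 at day 0, all above those of control siRNA. On day 1 they were 12.81, 12.75 and 12.73. On day 2 they were 12.74, 12.71 and 12.73, all below the control arrays, and their mean differed from day 1 by 0.04, where control cells had the second maximum. On days 3 to 5 they lay between 11.93 and 12.40. On day 6 they were 12.42, 12.37 and 12.34, again all below the control arrays.

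By day from −2 to 6, the siRNA difference of CEBPB was −0.02, 0.27, 0.06, −0.37, −0.15, −0.16, −0.16 and −0.39 (SE 0.08 each). None of these was called, the nearest being day 6 (adjusted p = 0.196) and day 2 (adjusted p = 0.526). The signals of the siRNA groups did not overlap on 6 of 8 days, day 0 with the PPARγ KD higher and days 2 to 6 with it lower. Of all probes, between 8.66% and 19.6% had no overlap on a given day. Over all days CEBPB was lower in 17 and higher in 7 of 24 pairs, with an interval of the difference of −0.17 to −0.06 (95%), an unadjusted p of 1.30e-04 and an adjusted p of 1. The F-test of the siRNA by day interaction was not called either (F = 8.37, adjusted p = 0.102), nor was the difference between days 4 to 6 and days 0 to 2 (−0.23, SE 0.06, adjusted p = 1).

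CEBPD, the partner of CEBPB in the first wave, made the same early peak. Its control signals went from 10.51, 10.54 and 10.21 before the hormones to 11.84, 11.89 and 11.49 at day 0, a rise of 1.32 (SE 0.10, 2.49-fold, adjusted p = 1.33e-11). The rise was seen in each replicate, although replicate 3 lay lower than the other two on both days. By day 1 the signal had fallen by 1.20 (SE 0.10, adjusted p = 2.60e-10) to 10.62, 10.77 and 10.23. A second fall by 0.59 came between day 2 and day 3 (SE 0.10, adjusted p = 0.0133), from 10.76, 10.89 and 10.26 to 10.15, 10.27 and 9.73, and this call was lost without any 1 of the 3 replicates (adjusted p between 0.895 and 1) and without the replicate block (adjusted p = 1).

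The early peak of CEBPD was also present in the PPARγ KD, with 10.52, 10.50 and 10.28 before the hormones and 11.46, 11.71 and 11.40 after them. From day 1 on its level in the PPARγ KD lay between 9.82 and 10.98, against 9.56 to 10.89 in control cells. The siRNA groups overlapped on all 8 days. Daily differences ran from −0.21 (day 0) to 0.26 (days 1 and 3), and 0 of 8 were called. Over all days the difference was 0.05 (SE 0.03, 95% interval −0.02 to 0.12, adjusted p = 1), with 12 pairs lower and 12 higher.

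The other CEBPD probe, 3360176, was dim. It passed background on 3 of 24 arrays with control siRNA and 6 of 24 with PPARγ siRNA, among them 2 of 3 at day 0 in either group. Its siRNA difference was 0.13 over all days (adjusted p = 1) and its control step from day −2 to day 0 was 0.48 (SE 0.15, not called). It had the sign of probe 110458 in both comparisons. The siRNA differences of the 2 probes had opposite signs on days 0, 1, 5 and 6. Over days 4 to 6 they were 0.21 for 3360176 and −0.05 for 110458. The siRNA groups of 3360176 did not overlap on 1 day, day 5, where 12.4% of all probes had no overlap. On that day its difference was 0.39, against −0.11 for 110458.

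CEBPA, the member that sustains the fat cell state together with PPARγ, rose in control cells and stayed below background with PPARγ siRNA. Its promoter is shown because the gene is described both as its own target and as a target of PPARγ.
Cebpa, chr7:35119043-35119292, + strand: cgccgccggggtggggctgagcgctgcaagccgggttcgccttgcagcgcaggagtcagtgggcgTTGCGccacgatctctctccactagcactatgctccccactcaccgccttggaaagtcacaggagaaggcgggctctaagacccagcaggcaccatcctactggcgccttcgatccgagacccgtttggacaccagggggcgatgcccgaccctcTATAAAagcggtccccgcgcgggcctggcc
TTGCG matched once, starting 185 bases before the start site, and TATAAA once, at 30 bases. Of all windows 14.5% held TTGCG and 12.4% held TATAAA. The DR1 letters AGGTCANAGGTCA were not in the window, as in nearly all windows (0.0335% held them).

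With control siRNA, CEBPA was near background before the hormones, at 5.84, 5.53 and 5.95 in replicates 1 to 3, with 0 of 3 arrays above background, and at 6.34, 6.26 and 6.58 on day 0, with 1 of 3. From day 1 on all 3 arrays were above background. Its signals of 6.56, 6.67 and 7.24 on day 1 gave way to 8.36, 8.15 and 8.47 on day 2, a rise of 1.50 within 1 day (SE 0.13, 2.84-fold, adjusted p = 1.57e-09, where 1.7% of all probes were called higher and 1.71% lower). Day 2 was the highest day in each replicate, at least 3.80-fold above day −2.

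After day 2, CEBPA in control cells was lower but well above its start. Day 3 gave 7.59, 7.62 and 8.05, day 4 gave 7.19, 7.09 and 7.80, day 5 gave 7.72, 7.60 and 7.98, and day 6 gave 7.38, 7.46 and 8.05. On these days it stayed at least 1.94-fold (day 4) to 2.57-fold (day 5) above day −2. The steps from day 2 to day 3 (−0.57, SE 0.13) and from day 3 to day 4 (−0.39) were not called. Replicate 3 had the highest CEBPA signal on all 8 days in control cells.

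With PPARγ siRNA, CEBPA passed background on 0 of 24 arrays. Its signals lay between 5.18 and 6.11, below every control array of the same day from day 0 on, and its course over time was not called (F = 1.88, adjusted p = 1). Since a signal below background is only a bound, the drop is given as a bound, with each array's lowest detected signal in place of dimmer ones. By that measure control cells held at least 1.26-fold more CEBPA transcript on day 1, and at least 3.62-, 2.29-, 1.78-, 2.33- and 2.21-fold more on days 2, 3, 4, 5 and 6. On day −2 and day 0 no fold could be given.

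CEBPA was called lower in the PPARγ KD on each day from day 0 (adjusted p = 0.0112) to day 6 (adjusted p = 8.86e-13), on day 2 with an adjusted p of 2.57e-17. On day −2 it was not called (adjusted p = 1), although all 3 pairs were lower. The day 0 call was lost without the replicate block, without replicate 2 or 3, with quantile normalization and without background correction (adjusted p = 1 in each), and with an offset of 50 (adjusted p = 0.295). From day −2 to day 6 the percentages of all probes called in turn were 0.861, 3.03, 2.91, 8.92, 2.76, 2.4, 3.24 and 3.88. The signal was lower in 24 of 24 pairs, with mean differences of −1.61, −1.65 and −1.75 in replicates 1, 2 and 3. The fitted difference over all days, −1.67 (SE 0.05, adjusted p = 2.76e-26), was −0.85 without background correction, and the PPARγ KD signals lie below background.

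Over days 4 to 6, fitted on their own 18 arrays, CEBPA was at least 2.09-fold lower in the PPARγ KD (adjusted p = 2.86e-10, with 5.31% of all probes called). Its measured siRNA difference depended on the day (F-test of the siRNA by day interaction, F = 36.9, adjusted p = 1.94e-10, with 7.11% of all probes called). CEBPA was the only member for which this was called. In single array pairs the measured difference ranged from −0.11 on day −2 to −2.86 on day 2. CEBPA was above background on 0 of 24 PPARγ KD arrays and on 0 of 3 control arrays on day −2. These sizes therefore give bounds only, and the interaction mainly follows the course in control cells. The difference between days 4 to 6 and days 0 to 2 was not called for CEBPA (−0.34, SE 0.11, adjusted p = 1) nor for the other members, where 3.63% of all probes were called. The adipocyte markers moved with CEBPA, all 6 being called lower in the PPARγ KD, where 6.74% of all probes were. Examples are CIDEC, a lipid droplet protein (log2 difference −4.15), and PLIN, perilipin (at least 3.74-fold). CIDEC passed background on 21 of 24 control and 15 of 24 PPARγ KD arrays, and the dimmer signals enter its size. The part of the adipocyte markers in the result was not tested. In RNA of a whole culture, fewer fat cells and less transcript per cell cannot be told apart.

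DDIT3, which encodes the inhibitory member CHOP, went the other way. Its promoter window is printed because the gene is regulated by bZIP factors, and TGACTCA was the one searched motif it held.
Ddit3, chr10:127290543-127290792, + strand: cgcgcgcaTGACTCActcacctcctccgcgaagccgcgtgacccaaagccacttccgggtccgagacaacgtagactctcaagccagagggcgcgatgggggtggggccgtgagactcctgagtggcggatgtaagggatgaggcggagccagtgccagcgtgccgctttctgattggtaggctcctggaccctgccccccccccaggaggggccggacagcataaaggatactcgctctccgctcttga
The match starts 242 bases before the start site, and 4.46% of all windows held TGACTCA.

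DDIT3 in control cells had signals of 11.00, 10.92 and 11.22 before the hormones, and 10.11, 9.73 and 10.13 at day 0. It thus fell in the step in which CEBPB and CEBPD rose, by 1.06 (SE 0.09, 2.08-fold, adjusted p = 8.15e-10), and the day 0 arrays all lay below the day −2 arrays. Afterwards no step was called, and the level on the later days was higher, except that day 5 was slightly below day 4. The signals were 10.11, 9.92 and 10.14 (day 1), 10.48, 10.37 and 10.46 (day 2), 10.63, 10.46 and 10.51 (day 3), 11.00, 10.89 and 10.88 (day 4) and 10.82, 10.85 and 10.96 (day 5). The day 6 signals were 11.38, 11.39 and 11.22, the highest mean of its course.

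The PPARγ KD kept this course at a higher level. Day −2 gave 11.55, 11.36 and 11.57, day 0 gave 10.59, 10.56 and 10.42, and day 1 gave 10.63, 10.72 and 10.50, each above all control arrays of that day. Day 2 was the exception, with 10.20, 10.29 and 10.37 against 10.48, 10.37 and 10.46 in control cells, where all 3 PPARγ KD arrays lay below, the closest (10.366) only just under the lowest control array (10.368). On days 3, 4, 5 and 6 the PPARγ KD means were 10.78, 11.26, 11.21 and 11.68, with SDs of 0.03 to 0.08, against control means of 10.53, 10.92, 10.88 and 11.33.

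Over all days DDIT3 was higher in the PPARγ KD by 0.33 (SE 0.03, 95% interval 0.27 to 0.39, 1.26-fold, adjusted p = 2.66e-08). It was higher in 21 of 24 pairs, and the 3 lower pairs were those of day 2 (difference −0.15, SE 0.09, adjusted p = 1). On that day the median difference was −0.12 over all probes and 0.03 over probes above background, to which DDIT3 belongs. By replicate the difference was 0.29, 0.41 and 0.29. Single days were called on day 0 (0.53, SE 0.09, adjusted p = 0.0168) and day 1 (0.56, SE 0.09, adjusted p = 0.00570). Before the hormones, on day −2, the difference was already 0.44, higher in all 3 pairs but not called (adjusted p = 0.371). With quantile normalization the day −2 difference was called (adjusted p = 0.0494). On days 3 to 6 the differences lay between 0.24 and 0.34 and were not called. The day 0 call was lost without replicate 1 or 2 and without the replicate block (adjusted p = 0.123), and the day 1 call without any 1 replicate (adjusted p between 0.0634 and 1). Over days 4 to 6 the difference was 0.34 (SE 0.05) and was not called (adjusted p = 0.0640), but it was with quantile normalization (adjusted p = 0.0130 for DDIT3). The F-test of the siRNA by day interaction was not called for DDIT3 (F = 6.23, adjusted p = 1).

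**Figure D1:**
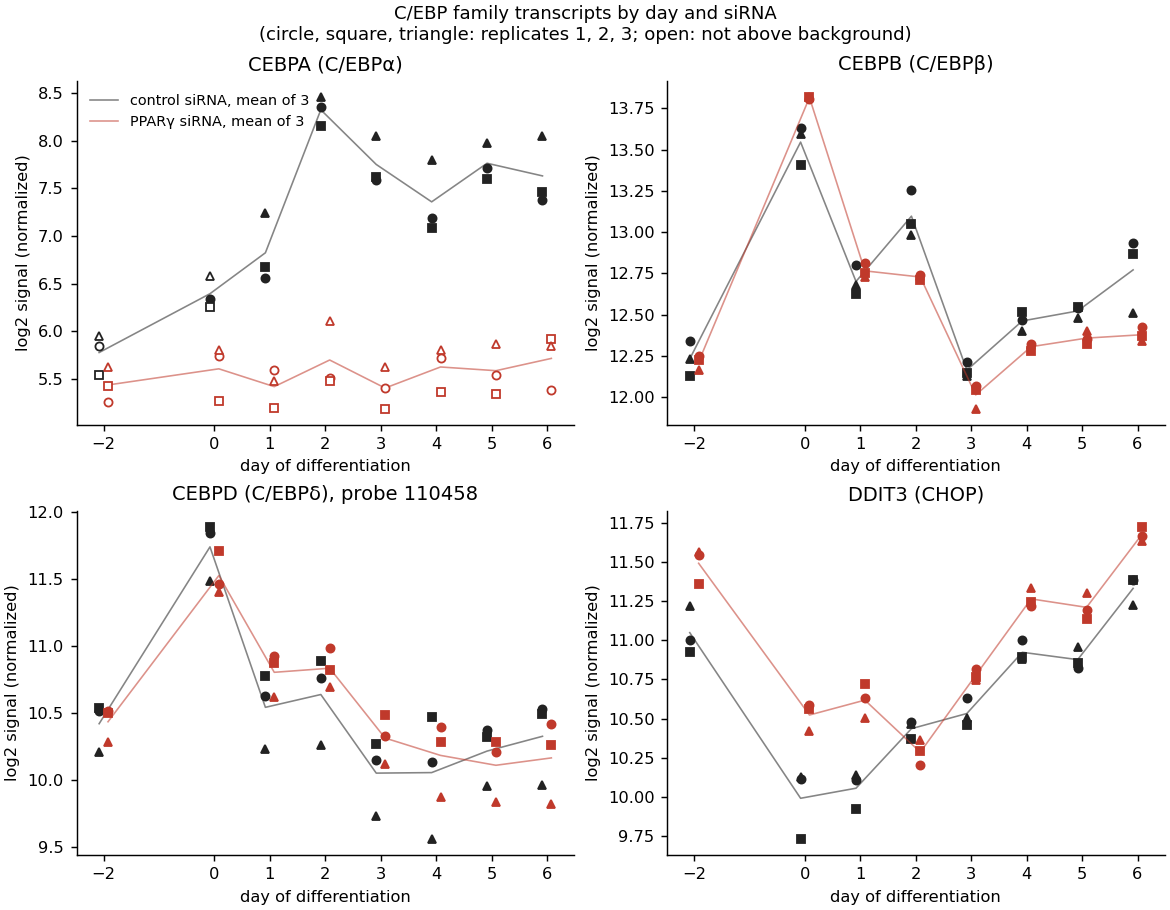
Log2 signal of the 4 genes (vertical axis) on each sampled day (horizontal axis), for control siRNA in black and PPARγ siRNA in red, with a point for each of 3 replicates and a line through the means. CEBPA stays between 5.18 and 6.11 with PPARγ siRNA, on open points that mark arrays not above background, while CEBPB and CEBPD peak on day 0 with both siRNAs and DDIT3 dips.

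The daily differences show these patterns side by side. Groups of the 2 siRNAs did not overlap on 7 days for CEBPA (days 0 to 6), 6 for CEBPB, 0 for CEBPD and 8 for DDIT3. Of all probes, the percentages without overlap from day −2 to day 6 were 8.66, 10.5, 12.9, 19.6, 10.9, 10.3, 12.4 and 12.2.

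**Figure D2:**
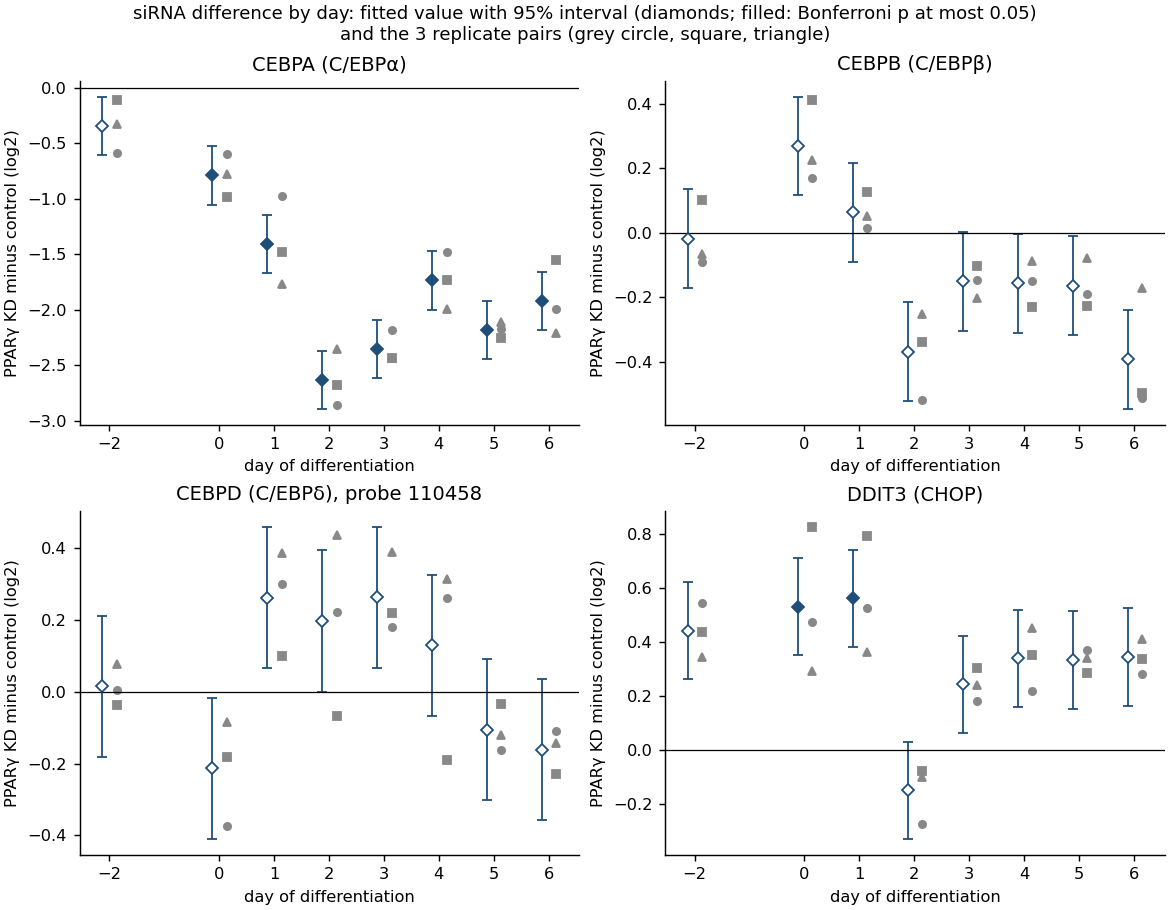
Difference of log2 signal, PPARγ KD minus control (vertical axis), for each day (horizontal axis), with the fitted value and its 95% interval as a diamond, filled where the adjusted p was at most 0.05, and the 3 replicate pairs in grey. CEBPA is below 0 on each day and deepest on day 2 (−2.63), and DDIT3 is above 0 on each day but day 2 (−0.15).

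Time mattered for each member with control siRNA. The F-test over the 7 later days against day −2 was called for CEBPA (F = 83.9), CEBPB (73.2), CEBPD (62.9) and DDIT3 (57.5), with 23.5% of all probes called. In the PPARγ KD it was called for CEBPB (F = 110, adjusted p = 2.01e-18), CEBPD (49.9) and DDIT3 (62.9), with 16.5% of all probes called, and not for CEBPA. Whether the courses of CEBPB, CEBPD and DDIT3 differ between siRNAs is the interaction test given above, which was not called for them. For CEBPD its value was F = 3.89 (adjusted p = 1).

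The order of the days was read from paired differences between neighbours, a pair being apart when all 3 replicates agreed in sign and their mean exceeded their SD. This rule is a description and not a test. For CEBPB in control cells the order from high to low was day 0, 2, 6, 1, 5, 4, −2 and 3, with days 6 and 1 and days −2 and 3 not apart. In the PPARγ KD it was day 0, 1, 2, 6, 5, 4, −2 and 3, with days 1 and 2 and days 6 and 5 not apart. Day 0 was the highest day with either siRNA. For CEBPD the control order was day 0, 2, 1, −2, 6, 5, 4 and 3, with days −2 and 6, 5 and 4 and 4 and 3 not apart. The PPARγ KD order of CEBPD was day 0, 2, 1, −2, 3, 4, 6 and 5, where days 2 and 1 and the last 4 days were not apart from their neighbours among themselves.

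For DDIT3 the control order was day 6, −2, 4, 5, 3, 2, 1 and 0, with days −2 and 4, 4 and 5 and 1 and 0 not apart. In the PPARγ KD it was day 6, −2, 4, 5, 3, 1, 0 and 2, all neighbours being apart by this rule. Day 2 was the lowest here instead of day 0, but the siRNA by day interaction was not called for DDIT3. CEBPA in control cells had the order day 2, 5, 3, 6, 4, 1, 0 and −2, with days 5 and 3 not apart and the last 2 days near background. Its PPARγ KD days had no order, all being below background.

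**Figure D3:**
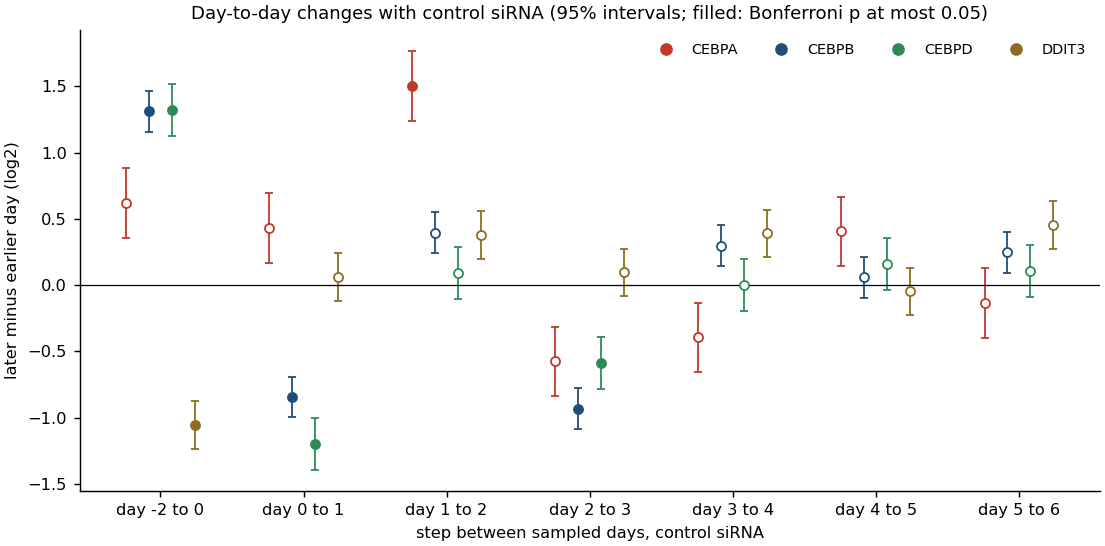
Change of log2 signal from one sampled day to the next with control siRNA (vertical axis) for the 7 steps (horizontal axis), with 95% intervals, filled where the adjusted p was at most 0.05. CEBPB (1.31) and CEBPD (1.32) rise and DDIT3 falls by 1.06 in the first step, and CEBPA rises by 1.50 from day 1 to day 2.

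Over the 16 conditions (8 days with 2 siRNAs), the means of CEBPB and CEBPD correlated at r = 0.87, and those of DDIT3 at −0.55 with CEBPB and −0.62 with CEBPD. CEBPA correlated weakly with each of the others (r between −0.23 and 0.12). These points share arrays and scaling and are a description. CEBPA was above background on 0 of 24 PPARγ KD arrays, so its correlations here and below rest in large part on signals below background. Among 9217 probes above background on at least 24 arrays, the 3 most like CEBPA were COX17, a copper chaperone of cytochrome c oxidase (r = 0.984), NDUFS3, a subunit of respiratory complex I (0.982), and HADHB, an enzyme of mitochondrial fatty acid oxidation (0.981), and 176 probes had r above 0.9. Most like CEBPB were ADAM15, a membrane metalloprotease (0.939), GPRC5B, an orphan receptor (0.929), and LOC100046232 (0.922). For CEBPD they were VCAN, the matrix proteoglycan versican (0.974), EEF1B2, a translation elongation factor (0.961), and SAV1, a scaffold of the Hippo pathway (0.960). For DDIT3 they were a RIKEN cDNA gene read by probe 3140079 (0.933), COL3A1, a fibrillar collagen (0.899), and PLEKHA1 (0.896), with 1 probe above 0.9.

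Genes of the pathway were counted in lists chosen for their known roles around the family. Of 14 adipocyte genes described as C/EBP targets, 11 were called lower and 1 higher in the PPARγ KD, and 2 were not called. Of all probes, 6.74% were called lower and 6.37% higher. The median difference was −1.68, against −0.03 over all probes. The list holds PPARG, which the siRNA targets, and genes that PPARγ is also known to control. Log2 differences were −3.74 (SE 0.08) for ADIPOQ, the hormone adiponectin, −3.65 (SE 0.05) for GPD1, an enzyme of glycerol phosphate synthesis, −3.05 (SE 0.07) for CFD, adipsin, and −2.36 (SE 0.06) for AGT, angiotensinogen. With PPARγ siRNA these passed background on 15, 21, 12 and 21 of 24 arrays, and the dimmer signals enter their sizes.

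Some of these genes were called higher already at day 0. From day −2 to day 0 in control cells, 6 of the 14 were called higher and 0 lower, against 4.01% and 5.04% of all probes. ADIPOQ was at least 11.6-fold, AGT 5.88-fold, GPD1 5.15-fold and CFD at least 1.65-fold up. CEBPA was above background on 0 of 3 and 1 of 3 arrays of these days, which gives no fold. Its difference of 0.62 was above 0 in all 3 replicates. By limma it had an adjusted p of 0.683 and passed with Benjamini-Hochberg adjustment (adjusted p = 2.43e-04), so no order between CEBPA and these genes can be read from this step. From day 1 to day 2, when CEBPA rose by 1.50, 9 were called higher and 0 lower, against 1.7% and 1.71% of all probes. Among them were ADIPOQ (4.72-fold), GPD1 (3.73-fold), CFD (3.53-fold) and SLC2A4, the insulin-responsive glucose transporter GLUT4 (2.72-fold, above background on 1 of 3 arrays on day 1). From day 2 to day 3, when CEBPA differed by −0.57 (not called), 0 were called lower and 1 higher. This was CFD (log2 4.27, SE 0.20), in a step where 8.45% of all probes were called.

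Acute-phase and inflammatory genes with C/EBP sites, 13 measured, moved both ways. Over days −2 to 6, 5 were called lower and 4 higher in the PPARγ KD (median difference −0.10), against 6.74% and 6.37% of all probes. Over days 4 to 6, 5 were called lower and 0 higher (median −0.24), where 5.31% of all probes were called in either direction. Log2 differences were −2.47 (SE 0.05) for HP, haptoglobin, −2.41 (SE 0.06) for ORM1, orosomucoid, −2.31 (SE 0.07) for SERPINA3N, a serpin detected on 8 of 24 PPARγ KD arrays, and −2.08 (SE 0.10) for ORM2. The 4 higher genes, named after their values were seen, were the chemokine CXCL1 (0.82), LCN2 (0.65), SAA3 (0.45) and PTX3 (0.33). Over days 4 to 6 their differences were 0.32, 0.18, 0.01 and 0.16. SAA3 passed background on 9 of 24 control and 14 of 24 PPARγ KD arrays, and the dimmer signals enter its sizes. In the IBMX and DEX step, together with CEBPB and CEBPD, 6 were called higher and 2 lower (median 0.77), against 4.01% and 5.04% of all probes. LCN2, lipocalin 2, rose 25.1-fold (above background on 2 of 3 arrays on day −2), HP 8.58-fold, ORM1 6.50-fold and the complement component C3 6.49-fold. CEBPB and CEBPD were called lower from day 0 to day 1 and from day 2 to day 3. In the former step 4 of these genes were called lower and 0 higher, where 9.06% of all probes were called. In the latter 2 were called lower and 3 higher (median 0.09), where 8.45% of all probes were called.

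Of 12 upstream regulators, 3 were called lower and 1 higher in the PPARγ KD, where 6.74% and 6.37% of all probes were. KLF4, which is described as an activator of Cebpb, was higher by 0.72 (SE 0.06), STAT5A differed by −0.57 (SE 0.04) and CUGBP1, an RNA-binding protein, by −0.30 (SE 0.03), and ZBTB16 was lower (adjusted p = 6.66e-04) but above background on 4 of 24 control and 0 of 24 PPARγ KD arrays. Over days 4 to 6, 0 of the 12 were called, where 5.31% of all probes were. The differences were then 0.05 for KLF4, −0.28 for STAT5A and −0.35 for CUGBP1. In the first control step KLF5, a factor that acts after C/EBPβ and C/EBPδ on Pparg, rose 19.4-fold (adjusted p = 2.66e-25) and ZBTB16 at least 1.27-fold. In that step 0 were called lower, where 5.04% of all probes were.

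In a list of 23 genes, most of them other bZIP factors, 2 were called lower and 4 higher in the PPARγ KD, against 13.1% of all probes called in either direction. FOSL2 was higher by 0.69 (SE 0.04) and CREB3L1 by 0.36 (SE 0.06). XBP1 differed by −0.59 (SE 0.03) and FOS by −0.50 (SE 0.07). CREB3L1 passed background on 12 of 24 control and 17 of 24 PPARγ KD arrays, and FOS on 18 and 14. Signals below background thus enter the sizes of CREB3L1 and FOS. Over days 4 to 6, 2 were called lower (XBP1 and FOS) and 0 higher, where 5.31% of all probes were called. FOSL2 then differed by 0.34 and CREB3L1 by 0.27. In the first control step, with 9.06% of all probes called, 6 were called lower and 1 higher, among them the circadian factor DBP (3.05-fold lower), CREB3L1 (at least 1.34-fold), FOS (2.38-fold) and ATF5 (2.12-fold).

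Genes of the ATF4 and CHOP stress response, 25 measured, are the group in which DDIT3 itself belongs. Over days −2 to 6, 1 was called lower in the PPARγ KD, 7 higher and 17 neither, with a median of 0.07. Of all probes, 6.74% were called lower and 6.37% higher. Over days 4 to 6, 1 was called lower and 0 higher, with a median of −0.03, where 5.31% of all probes were called in either direction. VLDLR was higher by 0.43 (SE 0.03), CHAC1, a glutathione-degrading enzyme that ATF4 induces, by 0.43 (SE 0.06) and SLC3A2, a subunit of amino acid transporters, by 0.42 (SE 0.07). XBP1 was the lower one. Over days 4 to 6 the differences were 0.04 for VLDLR, −0.0031 for CHAC1, 0.30 for SLC3A2 and −0.24 for TRIB3, beside 0.34 for DDIT3, and none of these was called. In the first control step, in which DDIT3 fell, 10 were called lower and 1 higher, with a median of −0.34 against 0.08 over all probes. Of all probes, 5.04% were called lower and 4.01% higher in this step. TRIB3, a pseudokinase that CHOP and ATF4 induce, fell 8.32-fold, CHAC1 7.35-fold, NUPR1 4.58-fold and HERPUD1, of the endoplasmic reticulum, 2.71-fold. The 1 higher gene was DDIT4 (log2 1.35, SE 0.09), a stress gene that glucocorticoid also induces, named after its value was seen. In the same step 5 of 8 fibroblast markers were called lower, among them COL1A1 (−1.79) and THY1 (−1.76). The 1 called higher was PDGFRA (1.41), and the list median was −0.98. Of the adipocyte markers, 5 of 6 were called higher (median 1.69). The part of these markers in the fall of DDIT3 and of the stress genes was not tested. In later control steps DDIT3 was not called, but stress genes were. From day 0 to day 1, 8 were called higher and 1 lower (DDIT3 0.06), where 9.06% of all probes were called. From day 1 to day 2, 5 were called higher and 0 lower (DDIT3 0.38), where 3.41% were. From day 2 to day 3, 0 were called higher and 4 lower (DDIT3 0.10), where 8.45% were.

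Inhibitors and modifiers of C/EBP proteins, 14 measured, had 3 called lower and 3 higher in the PPARγ KD, against 6.74% and 6.37% of all probes. RB1, the retinoblastoma protein, differed by −0.63 (SE 0.04), whereas ID4 was higher by 0.49 (SE 0.05), TRIB2, which directs C/EBPα to degradation, by 0.40 (SE 0.04) and TRIB3 by 0.39 (SE 0.05). Over days 4 to 6, 1 was called lower (RB1, −0.86) and 0 higher, where 5.31% of all probes were called. TRIB3 was called lower in the first control step, as given above. The fibroblast markers had 4 of 8 called higher in the PPARγ KD, DLK1, the preadipocyte factor, by 0.43 (SE 0.03), THY1 by 0.37, COL3A1 by 0.36 and PDGFRB by 0.34, beside the rise of DDIT3 by 0.33. Their part in it was not tested.

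**Figure D4:**
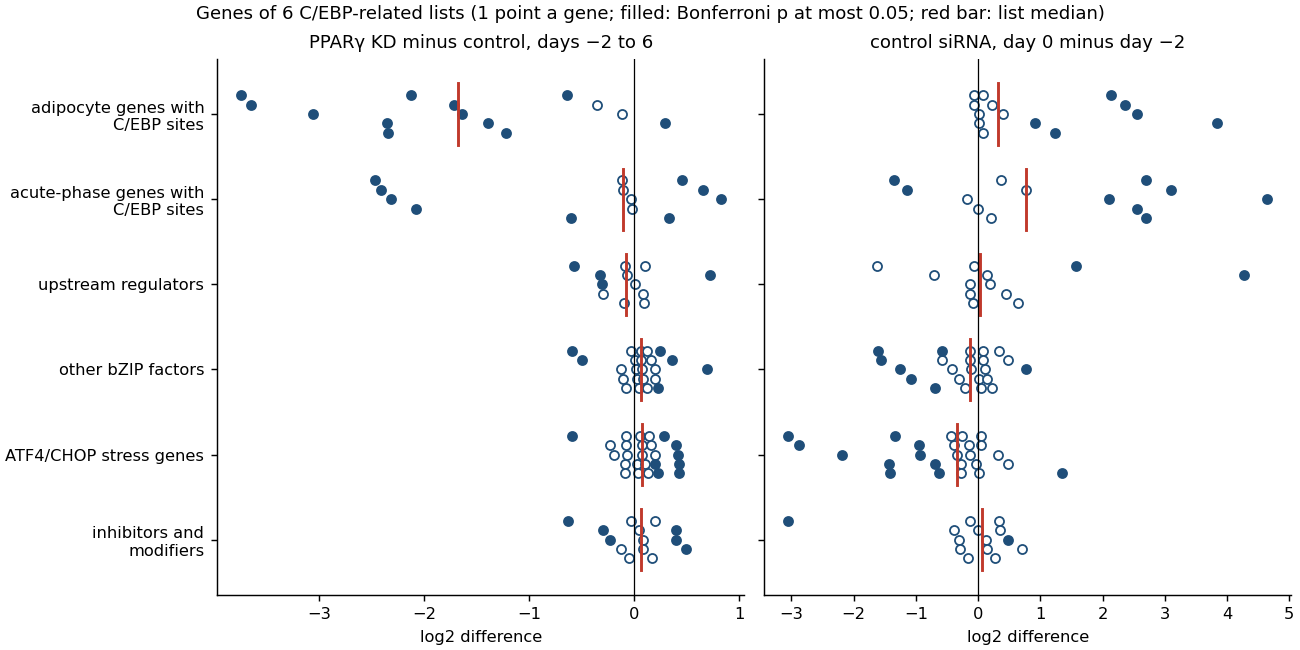
Log2 difference (horizontal axis) of each gene of 6 lists (vertical axis), PPARγ KD minus control over days −2 to 6 on the left and day 0 minus day −2 with control siRNA on the right, filled where the adjusted p was at most 0.05, with the list median as a red bar. In the PPARγ KD 11 of 14 adipocyte genes are called to the left of 0 (median −1.68), where 6.74% of all probes are. In the first control step 10 of 25 stress genes are called to the left of 0 (median −0.34), where 5.04% of all probes are.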

How the data were processed

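The authors deposited un-normalized mean bead intensities of every probe, exported from BeadStudio 3.3.7 per the file header. Beside them the deposited table gives the SD over beads as a signal value, the bead count, and the detection fraction, from which the detection p-value was taken as its complement to 1. Array medians lay between 105.1 and 141.7, and member probes were read on 16 to 87 beads (median 37). The number of arrays limits the precision.

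The background was removed by normexp on the detection p-values with an offset of 16 (limma 3.58.1, R 4.3.3), and arrays were scaled by rank-invariant probes (50th to 90th percentile, rank shift under 0.05), with factors of 0.730 to 1.58. Of these steps the study's methods name the rank-invariant scaling. One linear model of the log2 values of 48 arrays held the 16 conditions and, as a block, the replicate numbers (lmFit, eBayes, Bonferroni over 24613 probes). A separate model of 18 arrays covered days 4 to 6. The methods describe batch removal, and same-numbered arrays deviated together (correlation 0.544 to 0.914 over 24 pairs, mean 0.776). With replicates 1 and 2 crossed between siRNAs the mean was 0.781, so the numbers do not tell these replicates apart. Pairs of identical arrays numbered 0.

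Where a probe was above background on no array of a group, the fold is a bound against the higher of the lowest signal above background and the probe's own signal on each array. Named genes are all members, PPARG, the 4 called genes of each list with the largest differences, and the 3 probes most correlated with each member. A gene that this rule names is not reported here. The brightest probe stands for a gene. Members and lists were chosen with earlier results of these data known. On simulated data with 200 of 24613 probes changed, 100 of 100 2-fold changes were recovered over days −2 to 6, with 0 false calls. The recovery was 87 of 100 on day 2 and 99 of 100 over days 4 to 6. It was 79 of 100 for the first control step and 52 of 100 for the siRNA by day interaction, again with 0 false calls. The simulated noise was independent between arrays, followed the fitted model and had no background floor. Recovery for signals near background was therefore not tested. Alternatives were quantile normalization, no background correction, offset 50, a filter on probes above background on at least 3 arrays, Benjamini-Hochberg adjustment, no replicate block, an additive model and leaving out each replicate. Figures were drawn with matplotlib 3.10.9.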

Additional observations from a re-analysis of the deposited data

Results flagged for a closer look

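The measured siRNA difference of CEBPA was not the same on all days. The F-test of the siRNA by day interaction gave 36.9 (limma, Bonferroni-adjusted p = 1.94e-10), with fitted differences between −0.34 on day −2 and −2.63 on day 2. CEBPA was above background on 0 of 24 PPARγ KD arrays and on 0 of 3 control arrays on day −2, so these signals give bounds only.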

How the results depend on the processing

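Of the member effects recomputed under the alternatives, 752 kept their direction and their side of the threshold, 18 changed sign with no call in either fit, 29 became called, 16 lost their call and 0 called effects reversed. CEBPD over days −2 to 6 was −0.0033 without replicate 3. CEBPA over days −2 to 6 lay between −1.71 and −0.85 and DDIT3 between 0.29 and 0.36, called in each. Called member effects over days 4 to 6 went from 1 to 2 (DDIT3 added) with quantile normalization, with no background correction, with offset 50 and with the dim-probe filter, and to 3 with Benjamini-Hochberg adjustment. Benjamini-Hochberg adjustment also gave 16 instead of 9 calls on single days, 17 instead of 8 control steps, 2 instead of 0 late minus early differences and 4 instead of 1 interactions, and called CEBPB lower over days −2 to 6 (−0.11), since it is less strict, and the dim-probe filter gave 2 interactions.

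Without the replicate block, 25 instead of 43 list genes were called and the member calls over days −2 to 6 were 2 as with it, while the day 0 calls of CEBPA and DDIT3 and the CEBPD step from day 2 to day 3 were lost. Leaving out 1 replicate gave 25 to 39 list genes, the fewest without replicate 2. The cause was not tested, but fewer arrays enter these fits. Quantile normalization moved the median over all probes of the day 2 siRNA difference from −0.12 to −0.0015 and that of day 3 from −0.10 to 0.01. The BeadChip block was not run, as no chip is named in the headers. Signals near background limit CEBPA in the PPARγ KD and CEBPD probe 3360176.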
